A study of Mus musculus with 6 samples.

Results

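A set of 10 genes of the mTORC1 pathway was followed in hearts with an induced deletion of Mrps5, which encodes a mitochondrial small-ribosomal-subunit protein. The members were taken from the deposited expression table by gene name, and all were found among its 54532 genes: Mtor and Rptor (the kinase and a defining subunit of the complex), Rheb (the activating GTPase), Tsc1 and Tsc2 (the complex that restrains Rheb), Deptor, Ddit4 and Sesn1 (inhibitors), and Rps6kb1 and Rps6 (a substrate kinase and its target in the ribosome). RNA was sequenced from 6 mouse hearts. The 3 Ctrl hearts came from Mrps5 fl/fl mice and the 3 cKO hearts from Mrps5 fl/fl; MCM mice, in which MCM is the αMHC-driven MerCreMer recombinase that tamoxifen switches on in cardiomyocytes. Mice of both genotypes carried the floxed allele and were injected with tamoxifen at 45 mg/kg/day for 5 days from 8 weeks of age, and by the labels hearts were collected 12 weeks after tamoxifen, whereas the study's methods give the mice an age of 12 weeks. The labels give the Ctrl mice no MCM transgene, so the effects of the recombinase and of the deletion cannot be told apart, and cells of the heart other than cardiomyocytes keep Mrps5. Each heart is taken here as a separate animal, which the labels do not state.

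mTORC1 is a protein kinase complex on the lysosome that promotes protein and lipid synthesis and restrains autophagy when amino acids, energy and growth signals are plentiful. Growth signals reach it through AKT, which inactivates the TSC complex and so frees RHEB to activate the kinase, while amino acids act through the RAG GTPases and their regulators, the GATOR complexes and the sestrins. In the heart the pathway is known for its part in the growth of cardiomyocytes and in their response to load and stress. Most of its regulation acts on proteins, by phosphorylation and binding, and transcript levels do not measure its activity.

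The sequences shown first are those next to the members whose transcripts passed the test. They come from RefSeq on GRCm38.p6, which gave a window of 250 bases before and 50 bases after an annotated start for 9 of the 10 members, in 10 windows because Sesn1 has 2. The 250 bases before the Tsc1 start (chr2:28640983-28641232, plus strand) hold none of the motifs searched.

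Tsc1: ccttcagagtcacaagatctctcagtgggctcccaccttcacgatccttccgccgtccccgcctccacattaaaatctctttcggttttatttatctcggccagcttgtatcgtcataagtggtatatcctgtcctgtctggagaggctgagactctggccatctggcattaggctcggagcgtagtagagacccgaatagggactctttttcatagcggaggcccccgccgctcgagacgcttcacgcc

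The stretches before the first Sesn1 start (chr10:41810324-41810573, plus strand) and the second (chr10:41887189-41887438, plus strand) each hold 4 GC boxes, GGGCGG on either strand with overlaps counted, which are in capitals.

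Sesn1 first start: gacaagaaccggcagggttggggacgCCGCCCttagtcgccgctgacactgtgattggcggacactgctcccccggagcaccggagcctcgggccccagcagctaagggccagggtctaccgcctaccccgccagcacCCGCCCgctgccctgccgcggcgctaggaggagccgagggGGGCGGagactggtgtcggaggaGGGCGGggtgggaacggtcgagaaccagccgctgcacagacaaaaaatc
Sesn1 second start: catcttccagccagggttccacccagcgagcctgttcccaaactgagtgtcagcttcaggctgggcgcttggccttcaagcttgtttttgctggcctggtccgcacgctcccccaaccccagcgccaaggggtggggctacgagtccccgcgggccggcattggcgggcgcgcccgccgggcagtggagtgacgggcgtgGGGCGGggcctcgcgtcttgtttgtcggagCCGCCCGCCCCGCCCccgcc

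The first 20 bases of the Rps6 transcript (chr4:86857348-86857367, minus strand) open with C and a run of pyrimidines, 9 letters in all and in capitals. Transcripts of ribosomal proteins often start with such a run, called a terminal oligopyrimidine motif, through which mTORC1 is known to control their translation.

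Rps6: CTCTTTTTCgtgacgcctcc

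Across all 32851 windows of full length, 35.7% held a GC box, 7.15% the E-box CACGTG, 3.97% the ATF4 element core TGATGNAA, 1.79% the CRE TGACGTCA and 3.65% the FOXO element GTAAACA, each on either strand. Among the members, a GC box was found before the starts of Mtor (2 matches), Rheb (1), Ddit4 (1) and Sesn1, an E-box 96 bases before the Rheb start, and a FOXO element 23 bases after the first Sesn1 start. No member window held the ATF4 core or the CRE. A start of C followed by at least 4 pyrimidines was found in 2.5% of windows, in Rps6 alone of the members, in 6 of 23 other small-subunit genes with a window, and in 2 of 62 other genes of the pathway with a window (Itfg2 and Prr5). These matches describe letters and not bound sites. The pyrimidine run was sought only from the annotated first base, so a run beginning at another base was not counted.

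Expression was given as FPKM, fragments per length of transcript and per mapped fragments, a scale that corrects for gene length and depth. Values of FPKM × length came out as whole reads within 0.01 in 100% of cases, which gave 15989322 to 24875499 reads in genes per heart. Mrps5 itself fell to 0.204-fold of Ctrl (5.99 ± 0.690 FPKM in Ctrl against 1.22 ± 0.0947 in cKO, SD, n = 3 each; log2 fold change -1.65, limma adjusted p = 0.000202). In the cKO 2 heart all 4 Y-linked genes examined (Eif2s3y, Uty, Kdm5d, Ddx3y) were listed at 0 and Xist at 10.7 FPKM, against at most 0.127 FPKM of Xist in the others, although the study describes its animals as male. Members that passed are therefore also given without that heart, as are other named genes whose call was lost without it, where this was examined. The fit without that heart was not examined for Telo2, Mapkap1, Fnip1, Strada, Eif4ebp2, Eif4e and Ulk1. The 8 cardiomyocyte markers summed to 16943 to 20703 FPKM in Ctrl and 9682 to 16372 in cKO. In every heart this was far above the sum of any other marker list, which matched the label of heart tissue. Of these 8 markers 6 were lower in cKO and none higher, a difference between the groups that is no check of the label. Among all 12944 genes tested, 16.3% were higher and 17% lower at the adjusted p under 0.05 used for these marker counts. Endothelial markers summed to 109 to 127 FPKM in Ctrl and 71.2 to 86.0 in cKO (3 of 5 lower), fibroblast markers to 142 to 165 and 126 to 136 (1 of 5 higher, 1 lower), mural markers to 146 to 165 and 94.2 to 121 (1 of 4 higher, 1 lower) and macrophage markers to 94.0 to 132 and 82.7 to 118 (1 of 5 lower). Atrial markers (Myl7, Myl4, Sln and Nppa) summed to 128 to 2052 FPKM among the Ctrl hearts, highest in Ctrl 1, and to 575 to 1652 in cKO. Of these, 0 of 4 passed limma's test at an adjusted p under 0.05 and 0 at an unadjusted p under 0.05. The share of all genes at the unadjusted threshold was not worked out. The paper also uses Nppa as a marker of hypertrophy, so the sum is not a measure of atrial tissue alone. Nppa by itself measured 1062, 144 and 103 FPKM in the Ctrl hearts and 469, 1127 and 938 FPKM in the cKO hearts. The lymphocyte markers summed to at most 0.422 FPKM in any heart and were too low to be tested. No marker gene was at 0 in every heart, and the part of these differences in the results that follow was not tested. In bulk tissue, fewer cells of a type and less RNA per cell cannot be told apart.

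Among the 10 members, 3 passed the test across all genes (limma on log2 of FPKM + 1, Benjamini-Hochberg adjusted p under 0.05): Tsc1 and Sesn1 fell and Rps6 rose in cKO hearts. That is 30% of the members, against 33.3% of the 12944 genes tested, of which 16.3% were higher and 17% lower, so the share of members that changed was near the background. The groups did not overlap for 4 members, Tsc1, Tsc2, Sesn1 and Rps6, while 51.2% of all genes tested had no overlap. The median log2 fold change was 0.02 over the members and -0.02 over all genes. When FPKM was rescaled so that each heart had the same total of reads in genes, a choice made after seeing the data, the median of all genes moved up by 0.11, Rheb passed as well (log2 fold change 0.29, adjusted p = 0.0344), and the share of all calls that were higher went from 48.9% to 70.3% (62.8% when the total left out genes of the mitochondrial DNA). Without the cKO 2 heart the same number of members passed, 1 higher and 2 lower.

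**Figure D1:**
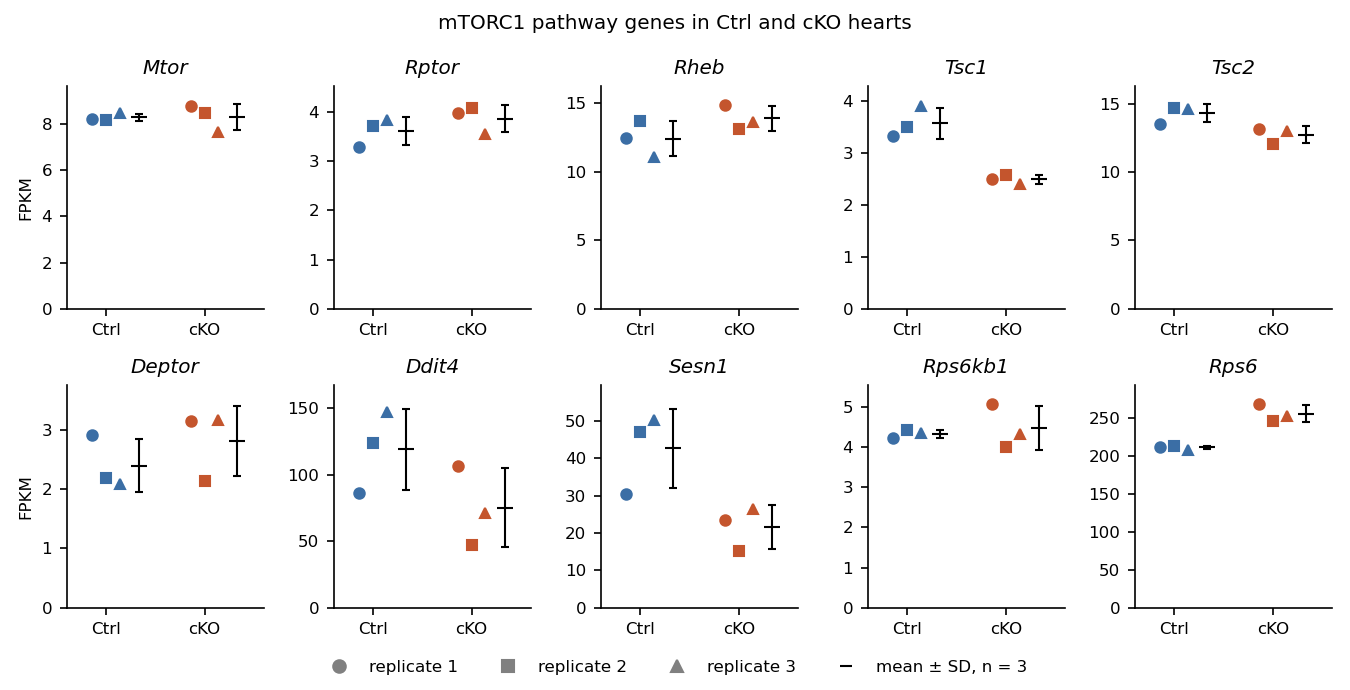
FPKM of the 10 members (y axes, each from 0) in the 3 Ctrl (blue) and 3 cKO (orange) hearts, 1 point per heart with its replicate number as the shape, and black bars for the mean ± SD. The groups are apart for Tsc1, Tsc2, Sesn1 and Rps6 and overlap for the other 6 genes.

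Neither the kinase nor its defining subunit passed the test. Mtor, the kinase itself (chr4:148448611-148557683, plus strand, GRCm38), measured 8.23, 8.20 and 8.47 FPKM in Ctrl hearts against 8.78, 8.49 and 7.67 FPKM in cKO hearts. The 3 cKO values spanned those of Ctrl on both sides. The means were 8.30 ± 0.145 and 8.31 ± 0.573 FPKM (SD, n = 3 each), and the fitted log2 fold change of -0.00027 had a 95% interval of -0.17 to 0.17 (adjusted p = 0.999), with a positive sign in 5 of 15 other fits. Rptor encodes raptor, which brings substrates to the kinase (chr11:119602905-119899576, plus strand), and measured 3.29, 3.72 and 3.84 FPKM in Ctrl hearts against 3.98, 4.08 and 3.55 FPKM in cKO hearts. One cKO heart lay within the Ctrl range and the others just above it (log2 fold change 0.08, 95% interval -0.12 to 0.27, adjusted p = 0.509).

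Rheb, the small GTPase that switches the kinase on (chr5:24802823-24842624, minus strand), measured 12.5, 13.7 and 11.1 FPKM in Ctrl hearts against 14.9, 13.1 and 13.6 FPKM in cKO hearts. The highest value was a cKO heart and the lowest a Ctrl heart, with 2 cKO values below the highest Ctrl value. The log2 fold change of 0.15 did not pass the test (95% interval -0.07 to 0.38, adjusted p = 0.250).

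Upstream of the kinase, Tsc1 fell. It encodes hamartin, the subunit that stabilises the TSC complex (chr2:28641228-28691167, plus strand). The transcript measured 3.32, 3.49 and 3.90 FPKM in Ctrl hearts against 2.49, 2.57 and 2.40 FPKM in cKO hearts. Every cKO heart was below every Ctrl heart, and the cKO hearts were close to one another. The mean fell from 3.57 ± 0.297 to 2.49 ± 0.0839 FPKM, 69.7% of Ctrl (log2 fold change -0.39, SE 0.0770, 95% interval -0.57 to -0.20, adjusted p = 0.0102), on 499 to 1115 reads per heart. This call held in all 15 other fits, with adjusted p between 0.0040 and 0.0390 (0.0187 without cKO 2). Tsc2 encodes tuberin, the subunit that acts on RHEB (chr17:24595816-24632630, minus strand), and measured 13.5, 14.7 and 14.6 FPKM in Ctrl hearts against 13.2, 12.0 and 13.0 FPKM in cKO hearts. The cKO hearts were again all lower, the nearest by a small margin, and the mean of 12.7 ± 0.613 FPKM was 89.1% of the Ctrl mean of 14.3 ± 0.658. The difference did not pass the test (log2 fold change -0.15, 95% interval -0.33 to 0.02, adjusted p = 0.143), and it came to -0.01 when every heart was scaled to the same total of reads. Exons of Tsc2 share 693 bases, 7.2% of their length, with Pkd1 on the other strand, and strand use in the counting is not given in the sources used here.

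On the FPKM scale, Tsc1 was at 0.245, 0.238 and 0.266 of Tsc2 in the Ctrl hearts and at 0.189, 0.214 and 0.185 in the cKO hearts. The ratio was lower in every cKO heart, with means of 0.250 ± 0.0147 and 0.196 ± 0.0154 (difference -0.0538). The exact two-sided permutation test gave p = 0.1, the smallest value that 3 against 3 hearts allow. The remaining subunit, Tbc1d7, measured 3.00, 3.28 and 2.77 FPKM in Ctrl hearts against 4.25, 3.99 and 3.60 FPKM in cKO hearts, and rose by 0.30 on the log2 scale (adjusted p = 0.0353), although the test was missed in 6 of 15 other fits, among them that without cKO 2 (0.0697). Rhebl1, the close relative of Rheb, was low and variable, from 0.353 to 1.20 FPKM, with overlapping groups (log2 fold change -0.16, adjusted p = 0.530).

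**Figure D2:**
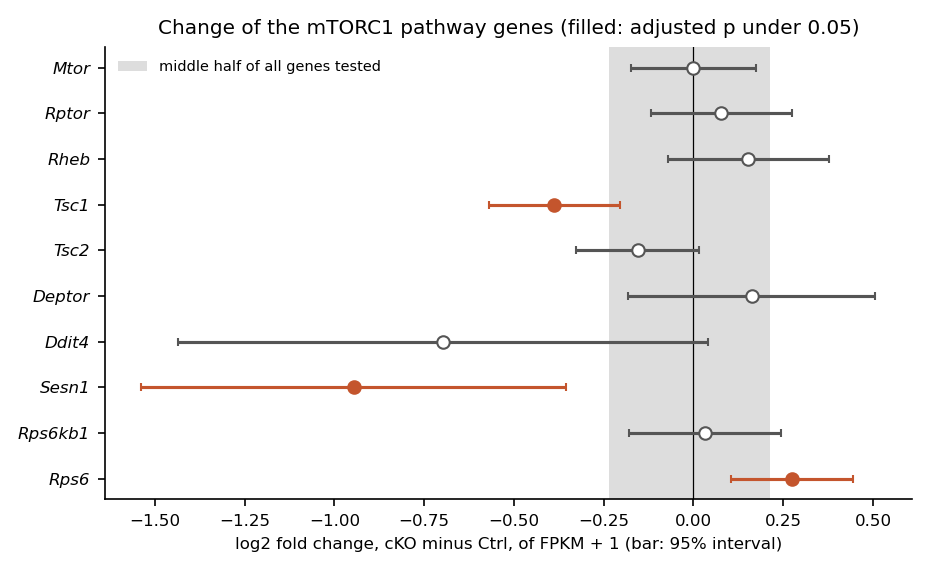
Fitted log2 fold change of FPKM + 1, cKO minus Ctrl (x axis), for each member (y axis), with 95% intervals as bars and the interquartile range of all genes tested (-0.23 to 0.21) in grey. Filled points passed an adjusted p of 0.05: Tsc1 at -0.39, Sesn1 at -0.95 and Rps6 at 0.27.

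Of the 3 inhibitors, Sesn1 passed the test and Deptor and Ddit4 did not. Deptor, which binds the kinase in both of its complexes and restrains it (chr15:55112317-55259271, plus strand), measured 2.90, 2.18 and 2.09 FPKM in Ctrl hearts against 3.14, 2.13 and 3.16 FPKM in cKO hearts. The groups overlapped, with 1 cKO heart among the lowest values and 1 Ctrl heart among the higher ones. Its log2 fold change of 0.16 had a wide interval of -0.18 to 0.51 (adjusted p = 0.427), on 403 to 705 reads per heart. The ratio of Deptor to Mtor on the FPKM scale was 0.289 ± 0.0562 in Ctrl and 0.340 ± 0.0818 in cKO (exact permutation p = 0.4).

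Ddit4 encodes REDD1, which is induced by hypoxia, glucocorticoids and DNA damage and inhibits mTORC1 through the TSC complex (chr10:59949669-59951834, minus strand). It measured 86.5, 124 and 147 FPKM in Ctrl hearts against 107, 47.3 and 71.6 FPKM in cKO hearts. The cKO 1 heart lay inside the Ctrl range and the other cKO hearts below it. The lowest Ctrl value was that of Ctrl 1, the heart with the highest sum of atrial markers, and a link between these was not tested. The means were 119 ± 30.5 and 75.2 ± 29.9 FPKM, the cKO mean being 63.2% of Ctrl, and the spread within each group was large (log2 fold change -0.70, SE 0.311, 95% interval -1.44 to 0.04, adjusted p = 0.127). The test was passed without the cKO 1 heart (log2 fold change -0.99, adjusted p = 0.0446) and missed in the other 14 fits, with adjusted p up to 0.309. Its relative Ddit4l stood at 0.181 to 0.279 FPKM and was too low to be tested.

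Sesn1 encodes sestrin 1, a stress-responsive inhibitor that acts through the GATOR complexes and AMPK (chr10:41809935-41908424, plus strand), and it fell most of the 10 members. It measured 30.5, 46.9 and 50.2 FPKM in Ctrl hearts against 23.5, 15.2 and 26.4 FPKM in cKO hearts. Every cKO heart was below every Ctrl heart, but the Ctrl 1 heart was nearer to the cKO hearts than to the other Ctrl hearts. The mean went from 42.6 ± 10.6 to 21.7 ± 5.82 FPKM, 50.9% of Ctrl (log2 fold change -0.95, SE 0.250, 95% interval -1.54 to -0.35, adjusted p = 0.0270). The adjusted p was 0.0869 without Ctrl 2, 0.0872 without Ctrl 3, 0.0528 without cKO 1 and 0.0742 with no filter on low values, and it was 0.0191 without Ctrl 1 and 0.0491 without cKO 2.

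Another sestrin rose. Sesn2, known to sense leucine and to be induced by ATF4, measured 1.24, 1.34 and 1.72 FPKM in Ctrl hearts against 2.31, 8.47 and 7.2 FPKM in cKO hearts. All cKO hearts were above all Ctrl hearts, and cKO 1 was far below the other cKO hearts (log2 fold change 1.39, SE 0.371, adjusted p = 0.0282, missed in 6 of 15 other fits, among them that without cKO 2 with 0.0627). Sesn3 ranged from 1.41 to 1.47 FPKM in Ctrl and from 1.46 to 1.64 in cKO and did not pass (log2 fold change 0.08, adjusted p = 0.438). Summed over the family, sestrin transcripts reached 33.2, 49.8 and 53.4 FPKM in Ctrl hearts against 27.3, 25.2 and 35.2 FPKM in cKO hearts. Sesn1 made up 92.0%, 94.3% and 94.1% of that sum in the Ctrl hearts and 86.2%, 60.1% and 74.9% in the cKO hearts. The sum and the shares were worked out after the values of the sestrins had been seen and were not tested.

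**Figure D3:**
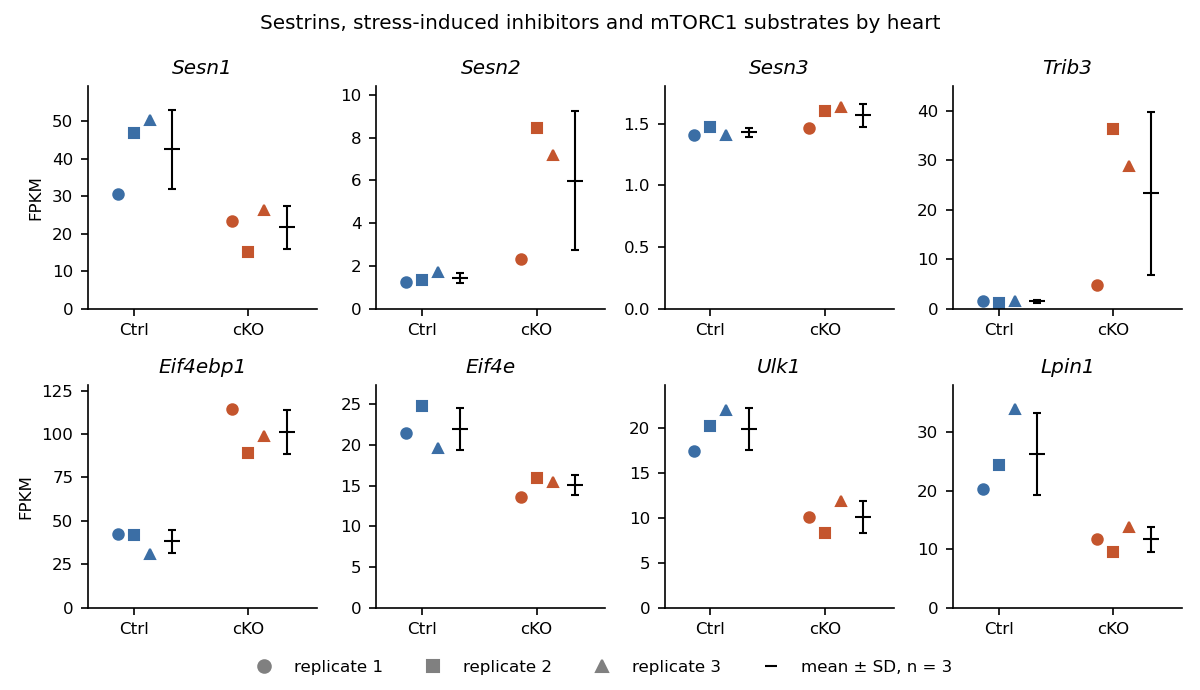
FPKM (y axes, each from 0) of the 3 sestrins, Trib3 and 4 mTORC1 substrates or effectors in the 3 Ctrl (blue) and 3 cKO (orange) hearts, with black bars for the mean ± SD. Sesn1, Eif4e, Ulk1 and Lpin1 are lower in every cKO heart and Sesn2, Trib3 and Eif4ebp1 higher, with cKO 1 nearest to Ctrl for Sesn2 (2.31 FPKM) and Trib3 (4.75 FPKM).

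Downstream of the complex, Rps6 rose and Rps6kb1 did not pass the test. Rps6kb1 encodes the S6 kinase that mTORC1 activates (chr11:86498871-86544805, minus strand), and measured 4.22, 4.42 and 4.34 FPKM in Ctrl hearts against 5.07, 4.0 and 4.32 FPKM in cKO hearts. The cKO hearts lay on both sides of the narrow Ctrl range (log2 fold change 0.03, 95% interval -0.18 to 0.24, adjusted p = 0.805). Its exons share 155 bases, 1.79% of their length, with Rnft1 on the other strand. The second S6 kinase, Rps6kb2, measured 5.86, 5.47 and 4.62 FPKM in Ctrl hearts against 7.51, 6.41 and 6.19 FPKM in cKO hearts, with no overlap. It did not pass (log2 fold change 0.29, adjusted p = 0.0759) but did in 3 of 15 other fits.

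Rps6 encodes ribosomal protein S6, whose phosphorylation is the usual readout of the S6 kinases (chr4:86854660-86857412, minus strand). It measured 212, 213 and 208 FPKM in Ctrl hearts against 268, 246 and 252 FPKM in cKO hearts. The Ctrl hearts were within a few FPKM of one another and every cKO heart was above them. The mean rose 1.21-fold, from 211 ± 2.51 to 255 ± 11.3 FPKM (log2 fold change 0.27, SE 0.0712, 95% interval 0.11 to 0.44, adjusted p = 0.0255). The call was lost in 6 of 15 other fits: without Ctrl 1 (adjusted p = 0.0728), Ctrl 2 (0.0636), Ctrl 3 (0.0877), cKO 1 (0.0681) or cKO 3 (0.0633), and with the replicate number as a block (0.0629). It held without cKO 2 (0.0307). Reads of the 4 Rps6 pseudogenes in the table amounted to 3.18% to 3.87% of Rps6 reads in each heart, and how reads shared with them were counted is not given in the sources used here.

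Most genes of the same subunit rose as well. Of the other 31 genes of the cytosolic small ribosomal subunit, 21 were higher in cKO (67.7%, against 16.3% of all genes) and 0 lower. At an unadjusted p under 0.05 there were 25, and the share of all genes at that threshold was not worked out. Their median log2 fold change was 0.41, against 0.27 for Rps6, which ranked 22 of 32 from the largest rise. The ratio of Rps6 to the median FPKM of the others was 1.472, 1.480 and 1.421 in the Ctrl hearts and 1.338, 1.416 and 1.323 in the cKO hearts. Every cKO value was below every Ctrl value, by a difference of -0.0983 between means of 1.46 ± 0.0321 and 1.36 ± 0.0501 (exact permutation p = 0.1, the smallest possible).

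Around the members, 87 gene symbols of the wider pathway were listed in 9 groups by role, of which 86 were in the table and 83 were tested. Among these, 21 were higher and 16 lower in cKO, 44.6% of those tested against 33.3% of all genes, with a median log2 fold change of 0.04. The split depended on the scaling, with 30 higher and 9 lower when every heart had the same total of reads in genes and 25 and 9 when that total left out genes of the mitochondrial DNA. With the members left out, 20 of 73 were higher and 14 lower (46.6%). Leaving out 1 heart brought the counts to between 6 and 14 higher and between 7 and 16 lower (14 and 15 without cKO 2). The share called was below that of all genes without Ctrl 2 (18.1% against 22.1%) and without Ctrl 3 (18.1% against 21.8%), close to it without Ctrl 1 (24.1% against 23.2%), and above it without cKO 1 (33.7% against 25.2%), cKO 2 (34.9% against 30.8%) or cKO 3 (30.1% against 26.9%).

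Within the mTOR complexes, 3 of 11 tested genes were higher and 1 lower, 36.4% in all and near the 33.3% of all genes. Akt1s1, which encodes PRAS40, an inhibitory subunit of mTORC1, measured 25.4, 25.2 and 25.2 FPKM in Ctrl hearts against 41.8, 29.2 and 34.8 FPKM in cKO hearts. All 3 cKO hearts were higher, cKO 1 most (log2 fold change 0.45, SE 0.126, adjusted p = 0.0333, missed in 6 of 15 other fits). Telo2 (log2 fold change 0.45, adjusted p = 0.0064), a factor in the assembly of the kinase, and Mapkap1 (0.39, adjusted p = 0.0204), a subunit of the second mTOR complex, rose as well and were named after their values were seen. Tti1, the partner of Telo2 in that assembly, fell to 5.49 ± 0.104 FPKM from 6.72 ± 0.168 (log2 fold change -0.25, adjusted p = 0.0241, missed in 7 of 15 other fits). Rictor, the defining subunit of the second complex, was near 1 FPKM in both groups, and the ratio of Rptor to Rictor was 3.72 ± 0.265 in Ctrl and 4.11 ± 0.390 in cKO (exact permutation p = 0.3).

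On the amino acid branch, 4 of 13 genes in the list of the RAG GTPases and the Ragulator scaffold were higher and 2 lower. That is 46.2%, against 33.3% of all genes. The list also held Slc38a9, Flcn, Fnip1 and Fnip2, which belong to neither. The lower genes were Rragd and Fnip1 (log2 fold change -0.48, adjusted p = 0.0367 in limma), and Fnip1 was named after its values were seen. Rragc and Rragd encode alternative partners in the RAG dimer and moved in opposite directions. Rragc had a mean of 10.8 ± 0.589 FPKM in Ctrl and 14.8 ± 1.75 in cKO hearts (log2 fold change 0.41, adjusted p = 0.0181), and Rragd 31.1 ± 2.32 and 21.7 ± 2.76 FPKM (log2 fold change -0.51, adjusted p = 0.0138). Without Ctrl 3 neither passed, with adjusted p of 0.0651 and 0.0520. Of the 11 genes of the GATOR and KICSTOR complexes 2 were higher and 0 lower, 18.2% and below the share of all genes. At an unadjusted p under 0.05 there were 3, a threshold at which the share of all genes was not worked out. Sec13 had the larger rise, to 17.6 ± 0.551 FPKM from 14.1 ± 0.728 (log2 fold change 0.30, adjusted p = 0.0172), and missed the test without Ctrl 2 (0.0634) and without Ctrl 3 (0.0534).

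Among the 7 listed amino acid sensors, 2 were higher and 1 lower (42.9%, against 33.3% of all genes). Lars had the largest rise among them. It encodes the cytosolic leucyl-tRNA synthetase, which is also described as a leucine sensor for the RAG GTPases. The transcript measured 14.4, 14.6 and 13.1 FPKM in Ctrl hearts against 46.6, 42.9 and 42.8 FPKM in cKO hearts. The groups were far apart compared with their spread, and the call held in all 15 other fits (log2 fold change 1.58, SE 0.0756, adjusted p = 0.000146). Sesn2 was the other sensor that rose, and Sesn1 the one that fell.

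In the list of stress-induced inhibitors, 2 of 6 tested genes were higher and 1 lower (50%, against 33.3% of all genes). Sesn2, higher, and Sesn1, lower, were already counted among the sensors, so only Trib3 was new here. Trib3, a pseudokinase induced by the integrated stress response that restrains AKT, measured 1.6, 1.15 and 1.63 FPKM in Ctrl hearts against 4.75, 36.2 and 28.8 FPKM in cKO hearts. The cKO 1 heart was above every Ctrl heart but far below the other cKO hearts, as it was for Sesn2 (log2 fold change 2.92, SE 0.652, adjusted p = 0.0153, and 0.0521 without Ctrl 2). Ddit4, in the same list, was highest of the cKO hearts in cKO 1.

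Of the 10 genes listed for AMPK, the energy sensor that restrains mTORC1, and its activating kinase LKB1, 2 were higher and 2 lower. That is 40% and near the share of all genes. The list also held Cab39 and Strada, which belong to neither. The higher genes were Prkab2 and Strada (log2 fold change 0.29, adjusted p = 0.0416 in limma), and Strada was named after its values were seen. The genes for the beta subunits of AMPK moved in opposite directions. Prkab1 measured 11.6, 11.2 and 11.7 FPKM in Ctrl hearts against 5.97, 6.37 and 6.65 FPKM in cKO hearts, a fall to 55% of Ctrl that held in every other fit (log2 fold change -0.77, SE 0.0694, adjusted p = 0.00101). Prkab2 measured 12.0, 13.1 and 8.59 FPKM in Ctrl hearts against 16.7, 20.4 and 14.3 FPKM in cKO hearts (log2 fold change 0.57, SE 0.177, adjusted p = 0.0447, missed in 6 of 15 other fits, among them that without cKO 2 with 0.102). Among 7 genes that carry growth signals to AKT, 2 were higher and 3 lower (71.4%, against 33.3% of all genes). Pdpk1, the kinase that activates AKT, had the larger rise (log2 fold change 0.29, adjusted p = 0.0244, missed in 4 of 15 other fits, among them that without cKO 2 with 0.0532).

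**Figure D4:**
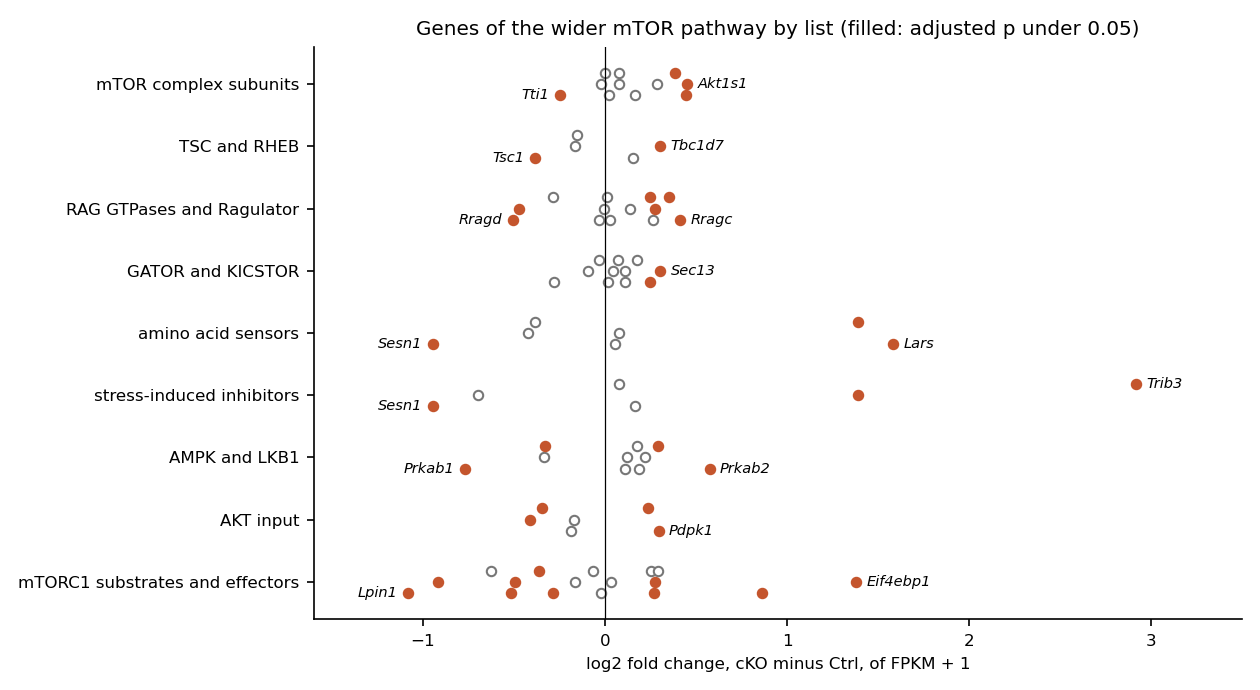
Fitted log2 fold change of FPKM + 1, cKO minus Ctrl (x axis), for the tested genes of the 9 lists of the pathway (y axis; 1 gene of the AKT list is not shown), 1 point per gene, filled where the adjusted p was under 0.05. A gene named at an end of a list is the one with the largest rise or fall there that passed, from Trib3 at 2.92 to Lpin1 at -1.08, and the sestrins and Deptor appear in 2 lists each.

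Of 17 tested substrates and effectors of mTORC1, 4 were higher and 6 lower (58.8%, against 33.3% of all genes). Eif4ebp1 encodes the translation repressor that mTORC1 phosphorylates to free the cap-binding protein, and measured 42.6, 41.9 and 30.8 FPKM in Ctrl hearts against 114, 89.3 and 99.1 FPKM in cKO hearts. The lowest cKO heart was above the highest Ctrl heart by more than the range of either group (log2 fold change 1.38, SE 0.150, adjusted p = 0.00161). Its relative Eif4ebp2 went the other way, to 16.0 ± 1.51 FPKM from 20.9 ± 0.863, 76.8% of Ctrl (log2 fold change -0.36, adjusted p = 0.0190). Eif4e, the cap-binding protein itself, fell to 15.0 ± 1.23 FPKM from 21.9 ± 2.61 (log2 fold change -0.51, adjusted p = 0.0115). Eif4ebp2, Eif4e and Ulk1 were named after their values were seen. The FPKM ratio of Eif4ebp1 to Eif4e was 1.98, 1.69 and 1.57 in the Ctrl hearts and 8.39, 5.60 and 6.39 in the cKO hearts, a ratio chosen after the values had been seen and not tested. Ulk1, the kinase that starts autophagy and that mTORC1 inhibits, measured 17.5, 20.2 and 22.1 FPKM in Ctrl hearts against 10.1, 8.30 and 11.9 FPKM in cKO hearts (log2 fold change -0.92, SE 0.14, adjusted p = 0.0040). Lpin1, a phosphatidate phosphatase whose entry to the nucleus mTORC1 limits, measured 20.3, 24.3 and 34.0 FPKM in Ctrl hearts against 11.7, 9.60 and 13.8 FPKM in cKO hearts. All cKO hearts were below all Ctrl hearts (log2 fold change -1.08, SE 0.200, adjusted p = 0.0080).

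**Figure D5:**
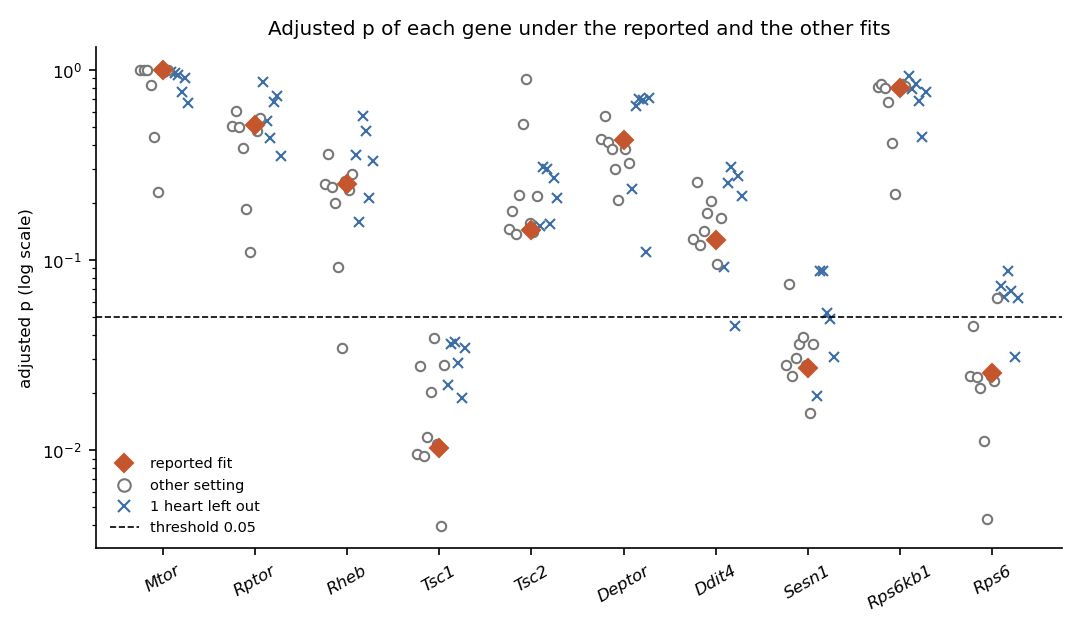
Adjusted p of each member (x axis) on a log scale (y axis) under the reported fit (diamond), 9 other settings (circles) and the 6 fits that left out 1 heart (crosses), with the threshold of 0.05 as a dashed line. Tsc1 stays below the line throughout, Sesn1 and Rps6 lie on both sides of it, Rheb and Ddit4 cross it once each, and the other 5 genes stay above it.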

How the data were processed

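Poly-A RNA from the 6 hearts was sequenced by the study. The submitters' processing notes name HISAT2 2.0.5 for alignment, featureCounts 1.5.0-p3 for counting and DESeq2 1.16.1, and the FPKM deposited by the authors were computed from the counts and the gene lengths. The notes name mm9 as the build, whereas of the 54495 gene IDs shared with GENCODE M21 (GRCm38), 53585 had identical coordinates, so GRCm38 is used here. Besides the FPKM of the 6 hearts the table held only gene annotation. The FPKM multiplied by gene length, in units of 1 read per heart, gave whole reads, and the library size implied by the FPKM was 0.913 to 0.980 times the reads in genes in Ctrl and 1.06 times in cKO, so the values had been scaled by something other than the plain total.

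The 12944 genes whose mean reached 0.5 FPKM were tested together, as log2 of FPKM with a pseudocount of 1, with limma 3.58.1 in R 4.3.3 (intensity trend, Benjamini-Hochberg adjustment, threshold 0.05). Fold changes are on this scale, which understates low genes. FPKM are not counts, so a count test was not the main result. Ratios were compared by exact two-sided permutation tests in scipy 1.17.1, for which the smallest p is 0.1 with 3 hearts per group. The method was tested on simulated data. Hearts of a group differed by far more than counting noise (mean chi-square per gene 15.9 to 53.3), so no library had the counts of another within sampling noise, which does not show that they came from separate animals, and p-values measure the spread between these hearts only. At 15989322 to 24875499 reads in genes, the members had 403 to 10050 reads in a heart. Counting error weighs most on the lowest of them, Deptor and Tsc1. For Deptor the spread between hearts was the larger limit, with an SD of 18.6% of the mean in Ctrl and 21.0% in cKO. For Tsc1 the SD was 8.34% and 3.37% of the mean.

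Members, lists and the markers of cardiomyocytes, atrial cells, fibroblasts, endothelium, mural cells, macrophages and lymphocytes were chosen with earlier results of these data known. Named were all members, the largest called rise and fall of each of 9 pathway lists, close relatives (Sesn2, Sesn3, Ddit4l, Rps6kb2, Rhebl1) and Mrps5, except 1 gene that is not reported here. Kics2 was not matched in the table. Alternatives changed the pseudocount, filter, scaling, trend, test (voom on recovered reads), replicate block and hearts used. Protein sequences and a Deptor promoter window were not used here.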

Additional observations from a re-analysis of the deposited data

How the results depend on the processing

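The 10 members under 15 other fits gave 150 comparisons, of which 132 kept their direction and side of the threshold, 10 lost the call, 2 gained one and 6 changed sign. Among the latter, Mtor was at 0.0238 with median-of-ratios scaling, 0.0828 with scaling without genes of the mitochondrial DNA, 0.13 with scaling to all reads in genes (chosen after seeing the data), and positive without Ctrl 3 and without cKO 3 (-0.0364 to 0.0501 over the fits without 1 heart), and Rps6kb1 was negative without cKO 1 (-0.0457 to 0.0938 over those fits), none of them past the threshold. For all genes, scaling to all reads in genes gave 3274 higher and 1381 lower, and leaving out 1 heart 1396 to 1977 higher and 1423 to 2011 lower, against 2110 and 2205. Members higher numbered 2 with scaling to all reads in genes and 0 with the replicate block, members lower numbered 1 with no filter, and leaving out 1 heart gave 0 to 1 higher, 1 to 2 lower and 1 to 3 in either direction. Wider pathway genes lower in cKO numbered 9 with either scaling to totals (25 higher without genes of the mitochondrial DNA, 30 with all reads in genes), and leaving out 1 heart gave 6 to 14 higher and 7 to 16 lower. With fewer hearts the fits had fewer residual degrees of freedom, and with no filter more genes were tested, while the cause of the other differences was not tested.

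The replicate numbers did not pair the hearts: after the group means were taken out, hearts with the same number correlated at -0.06, 0.17 and -0.01. The fit with the replicate block called 1874 genes higher in cKO and 1982 lower, and of the members called only Rps6 was no longer past the threshold. The ratios rest on exact tests that cannot go below 0.1, so their alternatives say nothing of stability. Depth limited Ddit4l, which had 11 to 19 reads per heart and was not tested.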
